A study of Mus musculus with 2 samples.

Results

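The 4 myogenic basic helix-loop-helix (bHLH) factors Myf5, Myod1, Myog and Myf6 and the 4 Mef2 genes Mef2a, Mef2b, Mef2c and Mef2d were read out in whole mouse embryos at embryonic day 10.5. The 8 genes were found by their Ensembl identifiers among 34624 loci, where a locus is a gene or a set of overlapping genes joined in the deposited files. Mef2b alone shared its locus with a second gene, its neighbour Borcs8, so the value printed for Mef2b belongs to both; the other 7 loci hold 1 gene each. The embryos came from CBA/Ca×C57Bl/10 crosses, were untreated, and were taken at 10.5 days with the morning of the plug counted as day 0.5. Total RNA of the whole body was sequenced in 2 replicates of this single group, and nothing in the labels tells single embryos from pooled ones. With 1 group there is no contrast between conditions, and any spread below is the spread between these 2 libraries, which may be technical. In RNA from a whole embryo, fewer cells of a type and less RNA per cell cannot be told apart.

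Myogenic bHLH factors switch cells to the skeletal muscle fate: Myf5, Myod1 and Myf6 act in the choice of fate, and Myog drives the differentiation of myoblasts into muscle cells. They bind E-boxes in DNA as pairs with widely expressed E proteins, and Id proteins inhibit them by taking up those partners. Mef2 proteins belong to the MADS-box family, bind an A/T-rich site in muscle genes together with the bHLH factors, and also act in heart, vessels, neural crest and neurons. At this stage skeletal muscle is forming mainly in the myotomes of the somites.

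The families are built around their DNA-binding domains, and the coding bases show how close the members are. For each family, 60 coding bases without gaps are printed here from GENCODE transcripts (build GRCm38, a later build than the files). Among in-frame stretches that lie within 1 exon of each gene, these hold the most positions shared by all 4 genes. The other genes were placed by their best match to Myf5 or Mef2a. Positions that differ between members are in capitals. In the myogenic bHLH family, 43 of the 60 bases are shared by all 4 genes and 17 are not. This stretch codes for part of the loop and the second helix of the bHLH domain and lies in exon 1 of each of the 4 genes.
Myf5: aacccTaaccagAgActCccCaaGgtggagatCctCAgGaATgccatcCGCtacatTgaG
Myod1: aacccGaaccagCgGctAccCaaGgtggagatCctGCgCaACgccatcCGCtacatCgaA
Myog: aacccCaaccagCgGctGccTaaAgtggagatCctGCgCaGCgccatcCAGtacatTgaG
Myf6: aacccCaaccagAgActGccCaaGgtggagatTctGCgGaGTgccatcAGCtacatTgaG
The stretch lies at chr10:107485536-107485595 on the minus strand in Myf5, at chr7:46377087-46377146 on the plus strand in Myod1, at chr1:134290386-134290445 on the plus strand in Myog and at chr10:107494279-107494338 on the minus strand in Myf6. Myf5 and Myf6 are next to each other on chromosome 10, with no other protein-coding gene between them in RefSeq. Over the 60 bases, Myf5 and Myf6 were the closest pair, with 53 identical bases, and Myf5 and Myog the most distant, with 47.

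In the Mef2 family, 46 of the 60 bases are shared by all 4 genes and 14 are not. The stretch codes for part of the MADS box and is coding bases 79 to 138 in each of the 4 genes.
Mef2a: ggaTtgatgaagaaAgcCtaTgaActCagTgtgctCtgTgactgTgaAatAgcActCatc
Mef2b: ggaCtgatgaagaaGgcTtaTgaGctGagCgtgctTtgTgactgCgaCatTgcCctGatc
Mef2c: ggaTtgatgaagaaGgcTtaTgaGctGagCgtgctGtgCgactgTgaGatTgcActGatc
Mef2d: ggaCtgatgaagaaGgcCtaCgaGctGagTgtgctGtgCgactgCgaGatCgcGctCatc
It lies in exon 4 of Mef2a (chr7:67295495-67295554, minus strand), in exon 3 of Mef2b (chr8:70165072-70165131, plus strand), in exon 4 of Mef2c (chr13:83592802-83592861, plus strand) and in exon 3 of Mef2d (chr3:88156346-88156405, plus strand). Mef2b and Mef2c were the closest pair, with 54 of 60 bases identical, and Mef2a and Mef2b the most distant, with 48. The longest run of identical bases between any 2 of the 8 transcripts, 3' UTRs left out, was 31 bases, between Mef2b and Mef2c, followed by 28 between Mef2c and Mef2d and 26 between Myf5 and Myod1. No source used here gives the read length or the treatment of reads with several matches, and sharing of reads between members was not tested.

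All 8 member loci reached 1 RPKM (reads per kilobase of length, scaled to library size) or more in both replicates, as did 49.4% of all loci and 65.1% of protein-coding loci. The counts summed over loci were 18318181 in replicate 1 and 117522171 in replicate 2, so values of replicate 1 rest on fewer reads. Intervals on reads below are exact 95% Poisson intervals and cover counting error only.

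Among the bHLH factors, Myog was highest and Myod1 lowest in both replicates. Myog, the differentiation factor, stood at 14.0 RPKM in replicate 1 (140 reads, interval 118 to 165) and 8.49 RPKM in replicate 2 (481 reads, interval 439 to 526), a mean of 11.3 ± 3.93 (SD, n = 2). Myf5, the earliest of the bHLH factors in the somite, stood at 5.93 RPKM in replicate 1 (79 reads, interval 62.5 to 98.5) and 3.48 in replicate 2 (263 reads, interval 232 to 297), a mean of 4.70 ± 1.74. Both genes were thus lower in replicate 2, by a similar factor.

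Myf6, the neighbour of Myf5 and the factor also called Mrf4, stood at 4.74 RPKM in replicate 1 (49 reads, interval 36.3 to 64.8) and 1.481 in replicate 2 (87 reads, interval 69.7 to 107), a mean of 3.11 ± 2.30. It had the widest relative spread of the 8 genes. Myod1 stood at 1.45 RPKM in replicate 1 (23 reads) and 1.22 in replicate 2 (110 reads), a mean of 1.34 ± 0.163. The counting interval of Myod1 in replicate 1 ran from 0.920 to 2.18 RPKM, so it held the 1 RPKM minimum, while in replicate 2 it ran from 1.00 to 1.47. Myod1 was therefore detected just above the minimum, at percentile 0.868 of the protein-coding loci that reached it, against percentiles 10.3 for Myf6, 16.2 for Myf5 and 32.7 for Myog.

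The Mef2 loci stood higher than every bHLH factor in both replicates. Mef2a stood at 64.4 RPKM in replicate 1 (2280 reads) and 46.3 in replicate 2 (10541 reads), a mean of 55.3 ± 12.8 and the highest of the 8. Mef2c, the member best known for its roles in heart and neural crest, stood at 47.6 RPKM (772 reads) and 47.9 RPKM (4042 reads), a mean of 47.7 ± 0.183. Mef2a was thus above Mef2c in replicate 1 and slightly below it in replicate 2.

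Mef2d, a broadly expressed member, stood at 28.5 RPKM in replicate 1 (330 reads) and 12.1 in replicate 2 (878 reads), a mean of 20.3 ± 11.6. The locus of Mef2b with Borcs8 stood at 23.7 RPKM (296 reads) and 17.9 RPKM (1278 reads), a mean of 20.8 ± 4.10, and how much of it came from Mef2b cannot be told apart. Which of these lower Mef2 loci was higher changed between the replicates. Among protein-coding loci of 1 RPKM or more in both replicates, Mef2a lay at percentile 73.9, Mef2c at 70.1, the Mef2b locus at 47.4 and Mef2d at 46.7.

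**Figure D1:**
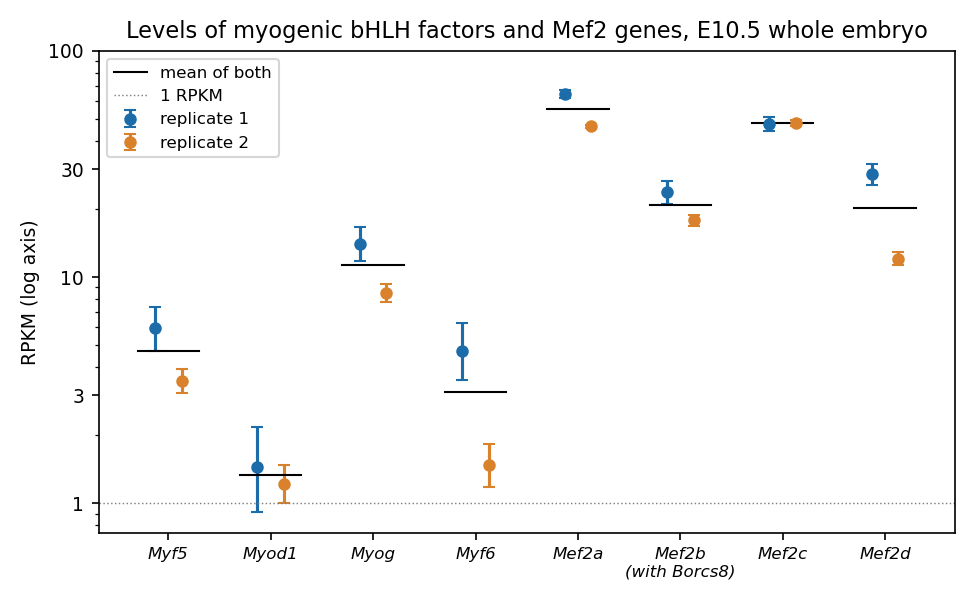
RPKM on a log axis for each member, with 1 point per replicate, its exact 95% Poisson interval (counting error only) and a line at the mean of both. The Mef2 loci, from 12.1 to 64.4 RPKM, all lie above every bHLH factor of the same replicate, and Myod1 lies closest to the dotted line at 1 RPKM.

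To order the levels, each pair was compared on the log2(RPKM + 1) scale within each replicate. A pair was called different when its sign was shared by both replicates and its mean difference was over 2 SD, the SD being that of the log2 ratio between replicates over loci of the same level (the larger of the 2 genes' values). With 2 values a gene, a two-sided exact permutation test cannot give a p below 0.3333. Of the 28 pairs of members, 20 were called (71.4%), against 68.8% of the 7381 pairs among the other listed genes, so a share like this is usual for genes of such lists. By mean level the order was Mef2a, Mef2c, Mef2b with Borcs8, Mef2d, Myog, Myf5, Myf6 and Myod1, and 0 of the 7 neighbouring pairs in it differed beyond the limit.

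Between the families, 14 of 16 pairs were called, all with the Mef2 locus higher. The called differences ran from 1.82 ± 0.38 (SD, n = 2) for Mef2d minus Myf5 to 4.58 ± 0.23 for Mef2a minus Myod1. The exceptions were the pairs of Myog with the 2 lower Mef2 loci, Mef2b minus Myog at 0.85 ± 0.20, which was called with the median absolute deviation as the spread, and Mef2d minus Myog at 0.72 ± 0.36. The pairs of Mef2d with Myog and Myf5 depended on the length used: with reads divided by a fixed transcript length, Mef2d minus Myog was -0.18 and Mef2d minus Myf5 was 0.89 and no longer called. Summed over each family, Mef2 loci came to 164 RPKM in replicate 1 and 124 in replicate 2 and the bHLH factors to 26.2 and 14.7, a ratio of 6.27 and 8.46. Without the Mef2b locus the ratio was 5.37 and 7.24.

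Within the bHLH family, 3 of 6 pairs were called. Myog exceeded Myod1 by 2.36 ± 0.37 and Myf6 by 1.66 ± 0.39, and Myf5 exceeded Myod1 by 1.26 ± 0.35. The call of Myog over Myf6 was lost with a pseudocount of 0.01 (2.04, under a wider limit), and that of Myf5 over Myod1 with pseudocounts of 0.1 and 0.01, in replicate 2 alone (1.01) and with CPM per kilobase (1.13). Myog minus Myf5 was nearly the same in both replicates, at 1.12 and 1.08, but its mean of 1.10 ± 0.02 lay just under the limit of 1.16, and it was called with the median absolute deviation as the spread and with level groups of loci of 1 RPKM or more. Myf5 minus Myf6 was 0.56 ± 0.41 and Myf6 minus Myod1 0.69 ± 0.76, so these 3 lower factors were ordered with less certainty: Myf6 minus Myod1 was 1.23 in replicate 1, where it was called, and 0.16 in replicate 2.

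Within the Mef2 family, 3 of 6 pairs were called as well. Mef2a exceeded the Mef2b locus by 1.37 ± 0.06 and Mef2d by 1.503 ± 0.50, and Mef2c exceeded Mef2d by 1.31 ± 0.83, though in replicate 1 alone Mef2c minus Mef2d was 0.72 and not called. Mef2c minus the Mef2b locus, at 1.18 ± 0.28, lay just under its limit of 1.20 and was called under 5 of the alternatives: the median absolute deviation as the spread, level groups of single-identifier loci or of loci of 1 RPKM or more, replicate 2 alone (1.37) and CPM per kilobase (1.23). Mef2a minus Mef2c was 0.19 ± 0.33 and changed sign between replicates, from 0.43 to -0.046. With reads divided by a fixed transcript length it was 1.44 and was called, so whether Mef2a and Mef2c stood at the same level depended on the length behind the RPKM. Mef2b minus Mef2d also changed sign, at -0.26 in replicate 1 and 0.53 in replicate 2.

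**Figure D2:**
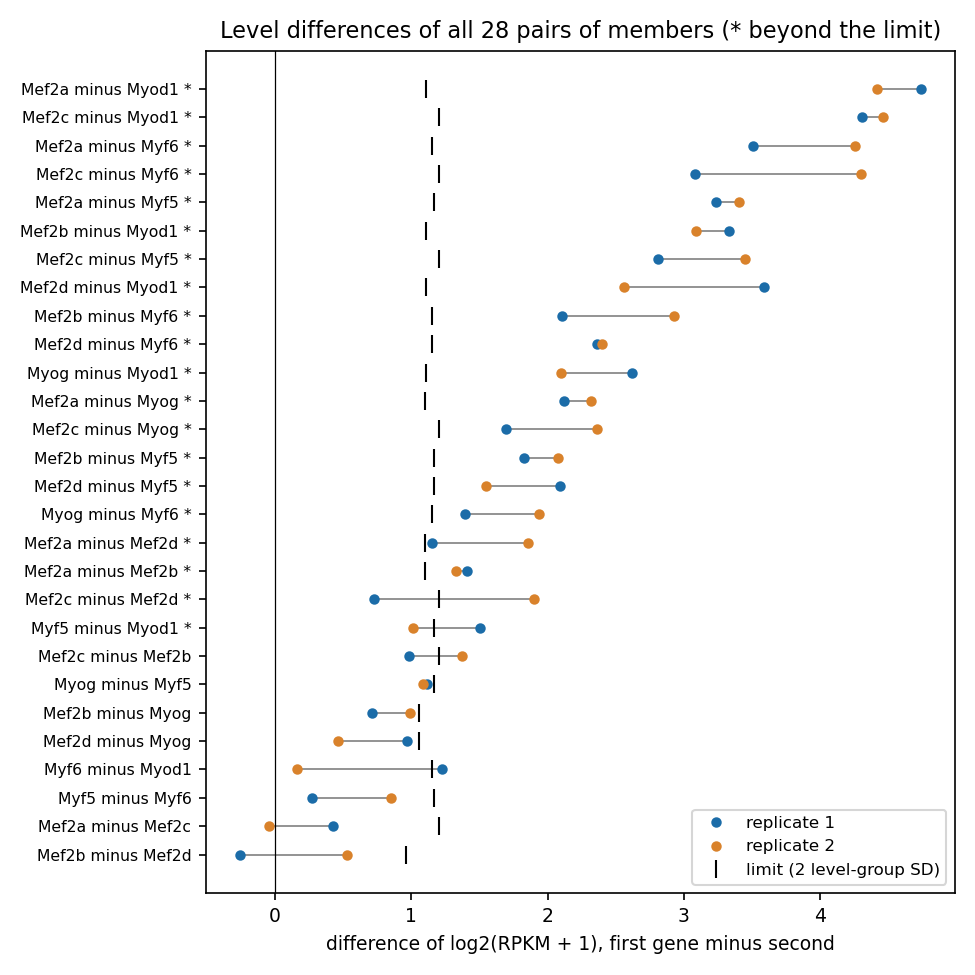
Difference of log2(RPKM + 1), first gene minus second, for all 28 pairs of members, with 1 point per replicate, a tick at the limit of 2 level-group SD and a star where the pair was called. The 20 called pairs lie at the top; Mef2a minus Mef2c and Mef2b minus Mef2d have points on both sides of 0.

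Within each family the composition by RPKM was led by the same gene in both replicates for the bHLH factors but not for the Mef2 loci. Myog made up 53.7% and 57.9% of the summed RPKM of the bHLH factors, Myf5 22.7% and 23.7%, Myf6 18.1% and 10.1% and Myod1 5.54% and 8.32%. Relative to their size, the shares of Myog and Myf5 thus changed less than those of Myf6 and Myod1. In percentage points the share of Myog moved more than that of Myod1 (SD of 2.98 and 1.97, n = 2). The Myod1 share rested on 23 reads in replicate 1. Of the Mef2 total, Mef2a made up 39.2% and 37.3%, Mef2c 29.0% and 38.6%, the Mef2b locus 14.4% and 14.4% and Mef2d 17.3% and 9.73%. Mef2c had the largest Mef2 share in replicate 2 and Mef2a in replicate 1.

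The length behind the RPKM bears on these comparisons. In 60.8% of 1682 protein-coding loci of 1 transcript with over 200 reads in replicate 1, the reads per RPKM matched, within 1%, the length of the 5' UTR, coding part and stop codon of the GENCODE transcript at an implied library of 13.7 (replicate 1) and 77.9 (replicate 2), in units of 1e6 reads. These implied libraries were the most frequent values obtained with that length. At the same libraries, the whole transcript matched in 2.62% of the loci and the coding part alone in 6.96%. No separate library was fitted for the whole transcript or the coding part. By the 60.8% match, the RPKM appear to leave out 3' UTRs, and whether the counted reads do so too was not tested. The 4 bHLH factors have 1 deposited transcript each, and the bases behind their RPKM were the same in both replicates: 971 for Myf5, 1156 for Myod1, 727 for Myog and 754 for Myf6. For Myf5 and Myod1 these equal the GENCODE values of 971 and 1156, and for Myog and Myf6 they are close to 742 and 762.

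The Mef2 loci have 5 to 13 deposited transcripts, and the bases behind their RPKM differed between the libraries. For Mef2a they were 2584 in replicate 1 and 2920 in replicate 2, for Mef2c 1183 and 1084, for Mef2d 846 and 933, and for the Mef2b locus 913 and 918. The transcript with the longest coding part holds 1833 such bases in Mef2a, 1830 in Mef2c and 1779 in Mef2d. Mef2a was thus divided by more bases than its longest coding transcript holds, and Mef2c and Mef2d by fewer. With that fixed length, the recomputed RPKM were 90.7 and 73.8 for Mef2a, 30.8 and 28.3 for Mef2c and 13.5 and 6.33 for Mef2d. By reads alone, Mef2a held 62.0% and 63.0% of the Mef2 reads, and by the fixed length 58.9% and 60.1%, so the near-equal levels of Mef2a and Mef2c in the deposited RPKM did not hold with the fixed length.

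**Figure D3:**
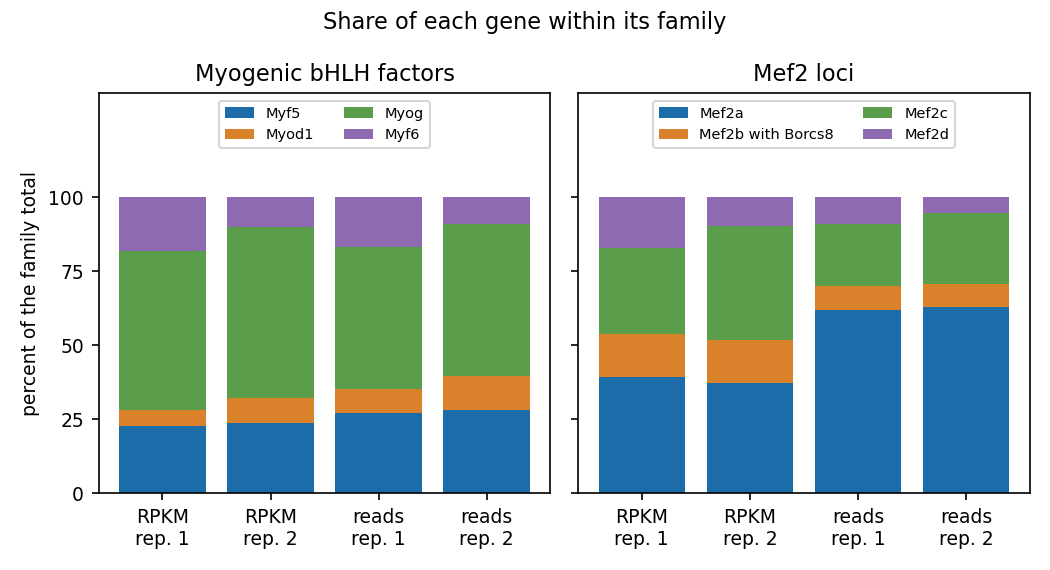
Share of each gene in its family's total, in percent, as stacked bars for RPKM and for reads in each replicate. Among bHLH factors Myog leads by both measures, while Mef2a takes 37.3% to 39.2% of the Mef2 RPKM but 62.0% to 63.0% of the Mef2 reads.

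The replicates differed most for Myf6 and Mef2d. By RPKM, 7 of 8 members were lower in replicate 2, as were 78.3% of all loci of 1 RPKM or more in both replicates, over which the median log2 ratio was -0.36. Scaled to the library sizes implied by the RPKM, the reads of Myf6 in replicate 2 were 0.312 times those in replicate 1 (95% counting interval 0.218 to 0.453), and those of Mef2d 0.468 times (0.412 to 0.533). These intervals compare 2 libraries and say nothing of a condition. Myf5 stood at 0.586 times (0.454 to 0.763) and Myog at 0.605 times (0.500 to 0.735), also below equal levels by more than counting error. For Myod1, with 0.842 times (0.533 to 1.38), no difference was detectable at this depth.

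Mef2a, at 0.814 times (0.777 to 0.852), the Mef2b locus, at 0.760 times (0.669 to 0.865), and Mef2c, at 0.921 times (0.853 to 0.996), were nearer to equal reads. Their intervals lay below equal reads too, so 7 of 8 members differed by more than counting error. The share of all loci that did so was not computed, so this count does not set the members apart. Over loci of 1 RPKM or more in both replicates, the median ratio was 0.778 (RPKM + 1). Mef2c was the single member not lower in replicate 2 by RPKM, with a ratio of 1.01, and the bases behind its RPKM were fewer there. By CPM, which scales to the summed counts and not to the implied libraries, Mef2c was lower, with a log2 difference of -0.29. Replicate 2 held 6.42 times the summed counts of replicate 1 but 5.68 times its implied library. Against loci of the same level, 0 of 8 members lay over 2 SD from the median log2 ratio, beside 3.5% of all loci of 1 RPKM or more in both replicates. Mef2d lay lowest, at -1.49 SD, and Myf6 at -1.18 SD, so their differences were within the spread of other genes of that level.

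**Figure D4:**
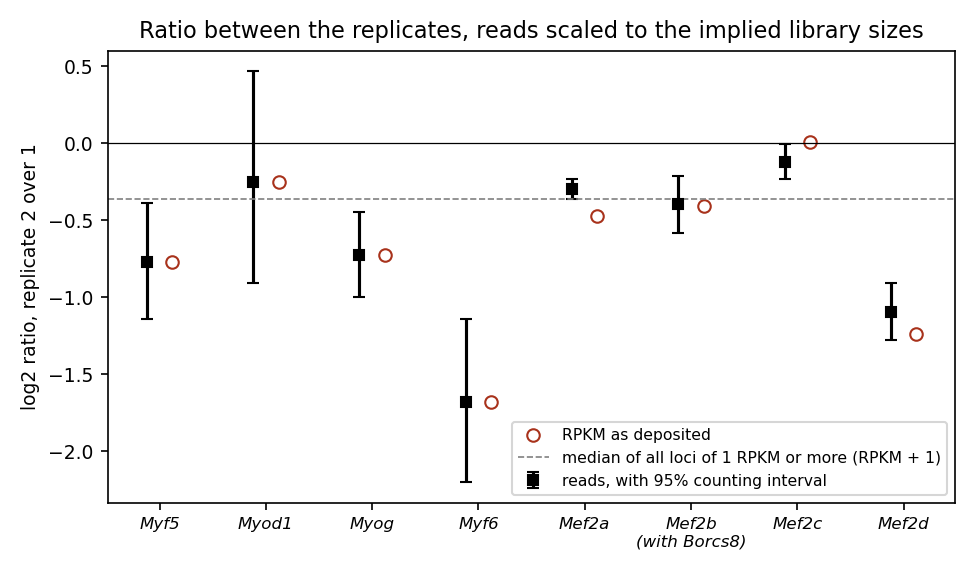
Log2 ratio of replicate 2 over replicate 1 for each member: squares for reads scaled to the implied library sizes, with 95% counting intervals, and open circles for the deposited RPKM, with a dashed line at the median of loci of 1 RPKM or more (log2 of RPKM + 1). Myf6 and Mef2d lie lowest, and square and circle part for Mef2a, Mef2c and Mef2d.

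The genes that act above the bHLH factors were all present. Each of the 16 upstream regulators passed the minimum of 1 RPKM, and their median was 18.6 RPKM in replicate 1 and 12.1 in replicate 2, above the bHLH factors' own median of 5.34 and 2.48. The somite homeobox gene Meox1 was highest (45.5 and 37.9 RPKM), then Pax3, which acts upstream of Myf5 and Myod1 in the somite (39.4 and 25.8), and Eya2, a transcriptional coactivator (28.1 and 16.8). Lbx1, a marker of migrating limb muscle precursors, was lowest (1.22 and 1.23), and Met, the receptor those cells need to leave the somite, differed most between replicates (18.9 and 9.17). The median log2 ratio between replicates was -0.50 for these regulators and -0.65 for the bHLH factors, beside -0.36 over all loci of 1 RPKM or more in both replicates and -0.48 to -0.56 in the level groups of the bHLH factors.

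The E proteins stood above the bHLH factors in both replicates, while the inhibitors ranged from below Myod1 to the level of the E proteins. The 3 E proteins, the partners with which they bind DNA, all passed: Tcf12 (149 and 195 RPKM), Tcf4 (176 and 150) and Tcf3 (77.2 and 83.7). Of 10 inhibitor loci, 9 passed, with a median of 33.1 and 27.1 RPKM. The repressor Zeb1 (214 and 155) and the Id genes Id3 (161 and 180) and Id2 (84.2 and 59.7) were highest, Bhlhe41 was lowest (0.431 and 0.421), and Snai1 differed most between replicates (7.78 and 2.67). The E proteins and inhibitors are expressed in many cell types, so these values do not give the levels within muscle cells.

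Regulators of Mef2 passed at all 15 loci, with a median of 19.9 and 13.8 RPKM. The calcineurin subunits Ppp3cb (150 and 117) and Ppp3ca (109 and 117) and the kinase Mapk7 (97.5 and 81.6, joined with Mfap4) were highest. The class IIa histone deacetylases, which bind Mef2 proteins and repress their targets, stood close together: Hdac5 at 19.4 and 18.5 RPKM, Hdac7 at 19.9 and 13.8, Hdac4 at 20.2 and 12.9 (joined with another gene) and Hdac9 at 16.1 and 10.5. Myocd, a cofactor of Srf in heart and smooth muscle, was lowest (4.23 and 2.30), and the joined locus of the acetyltransferase Ep300 differed most between replicates (53.1 and 25.9). Of 103 single-gene loci in the lists, the one nearest in level to Myf5 over the 2 samples was Mamstr, a Mef2 coactivator (6.03 and 3.59 RPKM, a distance of 0.04 on the log2 scale), and the one nearest to Myf6 was Vgll2, a muscle cofactor of Tead factors (4.54 and 2.21, distance 0.37). The nearest to Myod1 was the smooth muscle marker Myh11 (distance 0.021) and to Myog the neuron marker Elavl3 (distance 0.096). For Mef2a it was the neuron marker Elavl4 (0.11), for the Mef2b locus the endothelial marker Tek (0.11), for Mef2c the Tead cofactor Vgll4 (0.19) and for Mef2d the upstream regulator Six4 (0.39). With 2 samples this is closeness of level alone, and the nearest genes came from lists of several tissues.

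Genes that muscle cells switch on covered a wide range of levels, on both sides of those of the bHLH factors. In the list of embryonic muscle differentiation genes, 20 of 27 loci passed (74.1%), beside 65.1% of protein-coding loci. The list's median of 8.09 and 5.84 RPKM was close to that of all protein-coding loci, 8.38 and 5.52. Actc1, an actin shared with the heart (96.0 and 96.5), the fast myosin light chain Mylpf (76.8 and 56.7) and Tnnc1, a troponin C also shared with the heart (44.0 and 50.9, joined), were highest. Of the acetylcholine receptor subunits, Chrnb1 passed (3.12 and 1.94), Chrna1 (1.74 and 0.865) and Chrng (1.07 and 0.898) passed in replicate 1 alone, and Chrnd was the lowest of the list (0.193 and 0.172). The fusion genes Mymk (0.527 and 0.680) and Mymx (0.502 and 0.320) did not pass, with 6 and 2 reads in replicate 1. Smyd1, a methyltransferase of heart and skeletal muscle, differed most between replicates (14.0 and 4.40).

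Adult fibre genes passed at 2 of 8 loci (25%), Pygm, the muscle glycogen phosphorylase (6.15 and 3.22), and Actn3 (3.65 and 2.04). The list median was 0.350 and 0.360 RPKM. Myh1, the next highest, stood at 0.792 and 0.337 (joined), and the muscle creatine kinase Ckm was lowest, with 3 reads in replicate 1 and 8 in replicate 2 (0.180 and 0.0632, joined). At the stage sampled, the embryonic list thus stood over an order of magnitude above the adult one in the median of either replicate. The embryonic list holds genes shared with the heart, such as Actc1 and Tnnc1, so this contrast is not one of skeletal muscle alone. Among the listed genes named here, Chrna1, Chrnb1, Chrng, Mymk, Mymx and the class IIa histone deacetylases lie outside the naming rule and were chosen after their values were seen.

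Other tissues that use Mef2 genes, Mef2c among them, were present in the same RNA, and the share of each in the Mef2 values was not tested. All 12 cardiomyocyte markers passed, with a summed level of 385 RPKM in replicate 1 and 454 in replicate 2, led by Myh7 (74.4 and 94.2), Myl2 (54.6 and 95.3) and Myh6 (68.0 and 81.6), with Nkx2-5 lowest (1.37 and 1.17). Their median log2 ratio between replicates was 0.00, with 6 of 12 lower in replicate 2, beside the 78.3% given above for all loci of 1 RPKM or more. All 4 markers of the second heart field passed, with sums of 55.1 and 31.4 RPKM and a median log2 ratio of -0.78, led by Isl1 (30.8 and 16.9), and all 7 endothelial markers passed, with sums of 235 and 197, led by Egfl7 (95.9 and 87.5, joined). For Mef2c itself the log2 difference between replicates depended on the unit, at 0.01 by RPKM and -0.29 by CPM. Its closeness to any marker list was not tested.

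Markers of neurons, neural crest, smooth muscle and blood were present too. All 6 neuron markers passed (sums of 432 and 473 RPKM), led by Tubb3 (146 and 164). All 4 smooth muscle markers passed as well (123 and 129), led by Acta2 (76.3 and 85.1) and Tagln (38.8 and 36.4). Cnn1 (6.92 and 6.21) and Myh11 (1.44 and 1.19) stood lower, Myh11 close to the minimum. Neural crest markers passed at 4 of 6 loci (66.7%), beside 65.1% of protein-coding loci. Their sums were 76.4 and 47.0 RPKM, led by Ets1 (42.1 and 31.3). Tfap2a (15.5 and 4.84, joined) and Sox10 (10.1 and 7.44) followed, and Tfap2a differed most between replicates. Dlx6 was listed at 0 RPKM in both replicates although it had 83 and 315 reads. It was the 1 locus of all with reads and a value of 0. Blood and megakaryocyte markers passed at 4 of 5 loci (47.9 and 45.3), led by Pf4 (27.9 and 26.6), with Spi1 lowest (0.587 and 1.05). The leading marker of each of these tissues thus stood above Myog, at 11.3 RPKM on average, in both replicates. Other markers did not. Csf1r (3.22 and 3.33), Ptprc (1.57 and 1.26) and Spi1 of the blood list stood below Myog in both replicates. So did Cnn1 and Myh11 of the smooth muscle list. Of the neural crest markers other than Ets1, all stood below Myog by RPKM in both replicates, apart from Tfap2a, which did so in replicate 2 alone.

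**Figure D5:**
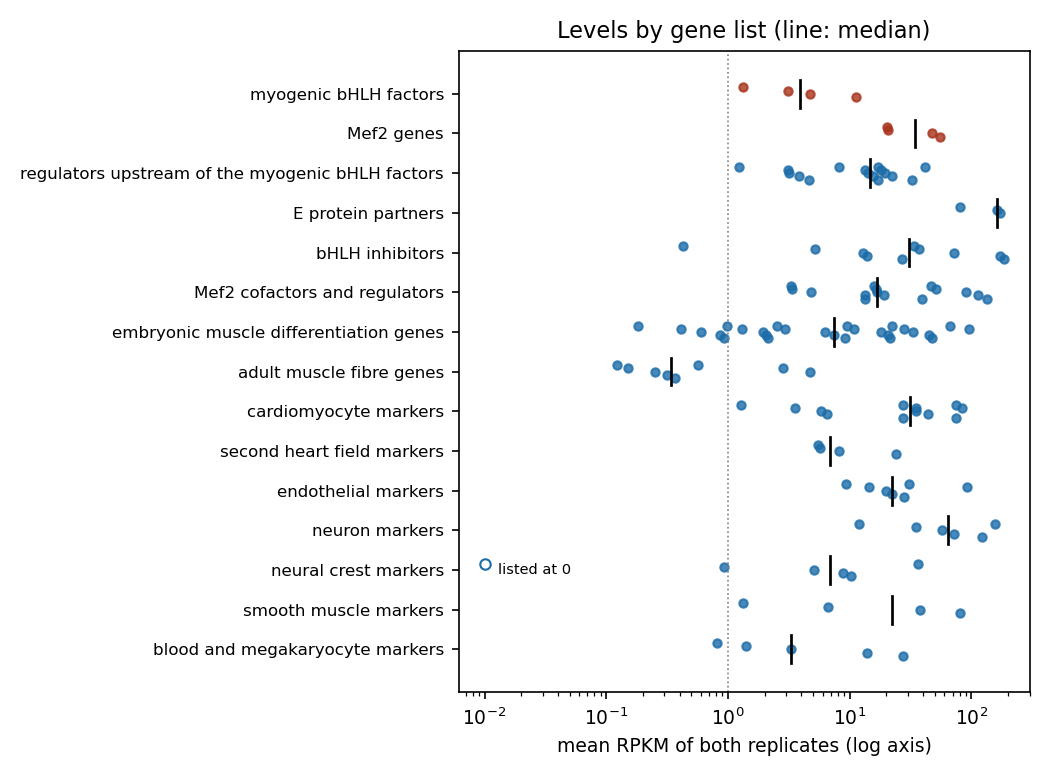
Mean RPKM of both replicates on a log axis for every gene of each list, with a line at the list's median and a dotted line at 1 RPKM; members are in red, and Dlx6, listed at 0, is drawn as an open circle at the left edge. Bhlhe41 among the inhibitors and most adult fibre genes lie left of the line, and the 3 E proteins lie right of every bHLH factor.

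Members are also known targets of their own families, so their promoters were searched for the letters the families bind. RefSeq promoters (build GRCm38.p6, 250 bases before to 50 after a start) were at hand for 6 of the 8 genes, 8 promoters in all, as Mef2c has 3. An E-box, CANNTG, which reads the same on both strands, was found in 4 of the 8, against 72.3% of all 32851 promoters of that length, and the MEF2 consensus site in 1 of the 8, against 3.19%. The sites are shown for the highest member of each family, with the match in capitals.
Myog: gggaaggggaatCACATGtaatccactgga
Myog: aatggcacccagCAGTTGgtgtgaggggct
Mef2a: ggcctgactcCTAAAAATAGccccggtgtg
The Myog E-boxes begin 138 and 12 bases before the start (windows chr1:134289854-134289883 and chr1:134289980-134290009, plus strand), and the Mef2a match begins 2 bases before it (chr7:67372841-67372870, minus strand). The MEF2 consensus was not found in the Myog window, and a match or its absence says only which letters are there.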

How the data were processed

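Total RNA of 2 whole-embryo samples of 1 group was sequenced, per the labels' protocols. Per the submitters' processing notes, TopHat and the mouse build mm9 were used. The sources used here do not name the counter, read length, filters or strand. Reads of a gene and of its antisense partner therefore cannot be told apart. Per the file headers, the authors deposited RPKM values and whole-number read counts for each locus. Rows with the same identifiers were summed: 34676 rows gave 34624 loci, of which 2473 joined several genes. Of 37681 identifiers, 32642 had a symbol in the table of names. RPKM was the main unit, and counts gave depth (18318181 and 117522171 in all), counting intervals and alternatives. A single group allows no count model.

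The SD of the log2 ratio between replicates was taken in 20 equal groups of loci by mean RPKM, with a pseudocount of 1 RPKM. The pair rule was tried on simulated data with the same spread at all levels and no shift between replicates, unlike these data. A pair that was not called is not shown to stand at equal levels. Members and the 15 lists (130 genes, all with a locus) were chosen with earlier results of these data known. The naming rule took the members. Of each list it took the 3 highest, the lowest, any at 0 RPKM and the one that differed most between replicates. For the second heart field, endothelial, neuron and blood lists, only some of these genes are given above. Python 3.11.15, pandas 2.3.3 and scipy 1.17.1 were used. Alternatives covered the pseudocount, spread, minimum, length, rescaling and each replicate left out. The fixed transcript length, single-identifier loci and the subtraction of the median of loci of 1 RPKM or more were chosen after seeing the data.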

Additional observations from a re-analysis of the deposited data

How the results depend on the processing

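The count of called pairs, 20 of 28, stayed between 18 and 23 under every alternative, and was 20 without either replicate. The count of members at the minimum was 8, or 6 at 3 RPKM, where Myod1 and Myf6 did not pass, and 7 without the joined Mef2b locus; for the listed loci it was 113 of 130, from 93 at 3 RPKM to 124 at 0.3 RPKM. With a single replicate, Mef2a minus Mef2c ranged from -0.046 (replicate 2) to 0.43 and Mef2b minus Mef2d from -0.26 (replicate 1) to 0.53, and with a fixed transcript length Mef2d minus Myog was -0.18. Levels with that length were 82.3 for Mef2a and 29.6 for Mef2c, and after scaling both replicates to an equal sum 1.51 for Myod1 and 52.4 for Mef2c. Family shares by reads were 27.5% for Myf5, 9.80% for Myod1, 49.6% for Myog, 62.5% for Mef2a, 7.84% for Mef2b, 22.6% for Mef2c and 7.11% for Mef2d, and with a fixed length 59.5% for Mef2a, 12.01% for Mef2b, 21.5% for Mef2c and 6.97% for Mef2d. Mef2a took 44.7% without the joined locus. The log2 difference between replicates of Mef2c was -0.29 in CPM. Less the median of loci of 1 RPKM or more in both replicates, the differences were -0.30 for Myog, -0.10 for Mef2a, -0.023 for Mef2b, 0.37 for Mef2c and -0.81 for Mef2d. The cause was not tested, beyond the lengths given for the Mef2 loci. Precision is limited by the 23 reads of Myod1 and 49 of Myf6 in replicate 1. No paired analysis was possible because there is 1 group.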
